A study of Mus musculus with 9 samples.

Results

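The genes described here are the adult globins and the enzymes that make and break down haem. There are 10 of them among the 34745 genes of the deposited table: Hba-a1, Hbb-bs, Alas1, Alas2, Urod, Cpox, Fech, Hmox1, Blvra and Blvrb. They were found by their gene symbols, and all 10 passed the filter on low counts. Haem is an iron-bearing ring that carries oxygen in haemoglobin and electrons in cytochromes, and the liver makes much of it for its cytochrome P450 enzymes. Its synthesis starts with an aminolevulinate synthase, which sets the rate, and ends when ferrochelatase inserts the iron. Haem oxygenase opens the ring to give biliverdin, iron and carbon monoxide, and biliverdin reductase turns biliverdin into bilirubin.

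Messenger RNA was sequenced from livers of male C57BL/6 mice aged 6 to 8 weeks, in 3 groups of 3 libraries. The groups were WZB given before D-gal/LPS, D-gal/LPS alone, and control. D-gal/LPS is a common mouse model of acute liver injury, in which D-galactosamine blocks RNA synthesis in hepatocytes and bacterial lipopolysaccharide then triggers inflammation. The labels leave WZB unexplained, while the submitters' design statement names inhibitors of the glucose transporter GLUT1 given beforehand. Doses, times and vehicles are not given in the labels. Neither is it said that each library came from its own animal, so the tests measure the spread between libraries, which may be technical. Total counts lay between 15072509 and 18106895 a library. Of 8 hepatocyte markers, Alb among them, all were found, and their counts scaled to library size (CPM) summed to 133200 to 143900 CPM in WZB plus D-gal/LPS livers, 105500 to 109400 CPM in D-gal/LPS livers and 89120 to 89850 CPM in control livers. The most abundant genes carry these sums. Of the 8, 2 were higher (Alb and Cps1) and 2 lower (Fgb and Tat) in D-gal/LPS livers than in control livers. The median log2 fold change of the 8 was -0.01, and of all genes tested 29.1% were higher and 29.3% lower there. In WZB plus D-gal/LPS livers against D-gal/LPS livers 5 of the 8 were higher, against 13.8% of all genes. Alb and Serpina1a no longer passed the test with libraries scaled by total counts only. Without D-gal/LPS library 3 and WZB plus D-gal/LPS library 2, set apart below, 3 of the 8 were higher, against 6.43% of all genes.

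In D-gal/LPS livers, against control livers, 5 of the 10 genes rose (Hba-a1, Hbb-bs, Alas2, Hmox1 and Fech) and 3 fell (Alas1, Blvrb and Cpox). Blvra and Urod did not pass the test. Of all 13583 genes tested, 58.4% passed in this comparison, 29.1% as higher and 29.3% as lower, so the share of these genes that passed is to be read against a broad response. At least 2-fold changes were found in 5 of the 10 (Hba-a1, Hbb-bs, Alas2, Hmox1 and Alas1), against 30.8% of all genes. The libraries of the D-gal/LPS and control groups did not overlap for 9 of the 10, against 65.5% of all genes. In livers given WZB before D-gal/LPS, against D-gal/LPS livers, 4 of the 10 fell (Hba-a1, Hbb-bs, Alas2 and Hmox1) and 3 rose (Cpox, Urod and Fech). In that comparison 28.5% of all genes passed, 14.7% as lower and 13.8% as higher. The change was at least 2-fold in 3 of the 10 (Hba-a1, Hbb-bs and Hmox1), against 5.81% of all genes, and the libraries did not overlap for 8 of the 10, against 45.3%. With libraries scaled by total counts only, 850 genes were higher and 3290 lower, in place of 1873 and 2001, which is 6.26% and 24.2% of all genes. Of the 10, 1 (Cpox) was then higher and 5 were lower, Alas1 being added. Against control livers, WZB plus D-gal/LPS livers had 5 of the 10 higher (Hba-a1, Hbb-bs, Alas2, Hmox1 and Fech) and 1 lower (Alas1), where 60.6% of all genes passed, 32.6% as higher and 28% as lower. There 5 of the 10 changed at least 2-fold (30.6% of all genes), and 7 of the 10 had no overlap of libraries (65.9% of all genes). With total counts, WZB plus D-gal/LPS livers had 5 of the 10 higher and 2 lower than control livers, against 23.9% and 37.3% of all genes, and D-gal/LPS livers had 4 higher and 4 lower than control livers, against 27.6% and 31.6%. Library 2 of WZB plus D-gal/LPS and library 3 of D-gal/LPS stood apart in the ratio of their beta globin counts, given below with the globins. Without both, D-gal/LPS livers had 4 of the 10 higher and 4 lower than control livers, where 26.5% of all genes were higher and 25.5% lower. WZB plus D-gal/LPS livers then had 1 higher and 4 lower than D-gal/LPS livers, against 6.43% and 7.36% of all genes, and 5 higher and 2 lower than control livers, against 29% and 24.7%. Each library group enters 2 of the 3 comparisons, so their values are set side by side and not counted as separate evidence.

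**Figure D1:**
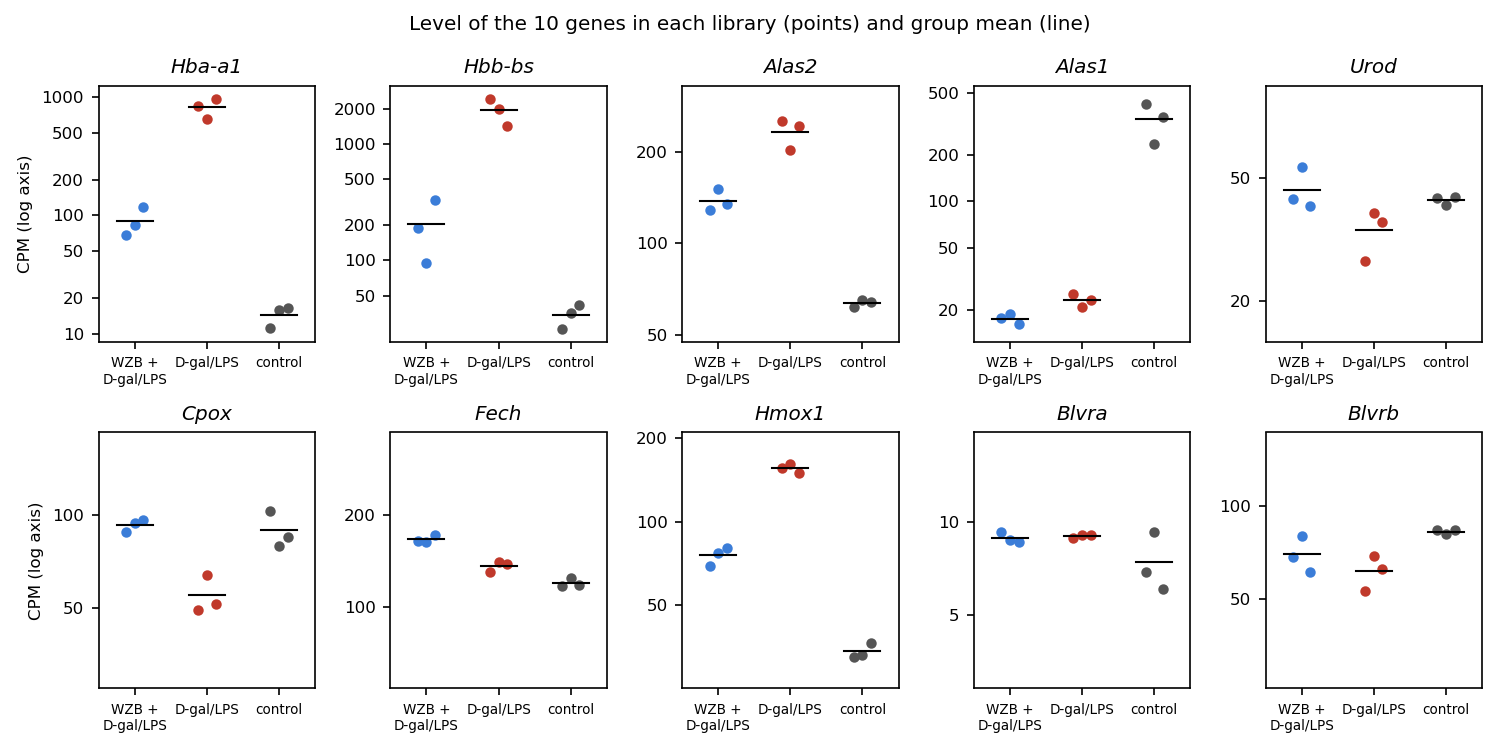
Levels in CPM (log axis) of the 10 genes in each library (points), with group means (lines), for WZB plus D-gal/LPS, D-gal/LPS and control livers. The globins, Alas2 and Hmox1 were highest in D-gal/LPS livers and lowest in control livers with no overlap of the 3 groups, and Alas1 was far lower in both injured groups than in control livers.

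Of the 10 genes the globins changed most in D-gal/LPS livers against control livers, and also between the injured groups. Hba-a1 encodes an adult alpha chain of haemoglobin and lies on chromosome 11 (chr11:32283511-32284465, plus strand, build GRCm38). Its counts were 975, 1109 and 1914 in WZB plus D-gal/LPS libraries, 14640, 9936 and 16178 in D-gal/LPS libraries, and 181, 263 and 318 in control libraries. The 3 groups did not overlap. On the CPM scale Hba-a1 averaged 90.0 ± 24.9 in WZB plus D-gal/LPS livers, 818 ± 152 in D-gal/LPS livers and 14.5 ± 2.96 in control livers (SD, n = 3 each). Hba-a1 was 56.2-fold higher in D-gal/LPS livers than in control livers (log2 fold change 5.81 ± 0.29 SE, adjusted p = 1.125e-06, edgeR quasi-likelihood test). In WZB plus D-gal/LPS livers it was at 0.110 times its level in D-gal/LPS livers (log2 fold change -3.18 ± 0.26, adjusted p = 0.000113). It was still 6.19-fold higher there than in control livers (log2 fold change 2.63 ± 0.26, adjusted p = 6.156e-05).

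Hbb-bs encodes the adult beta chain called s, from the haemoglobin haplotype that C57BL/6 mice carry, and lies on chromosome 7 (chr7:103826534-103828096, minus strand). Its counts were 2693, 1257 and 5330 in WZB plus D-gal/LPS libraries, 41558, 29995 and 23957 in D-gal/LPS libraries, and 424, 586 and 793 in control libraries. Again no library of a group reached into another group. Hbb-bs averaged 204 ± 117 CPM in WZB plus D-gal/LPS livers, 1930 ± 495 CPM in D-gal/LPS livers and 34.3 ± 7.69 CPM in control livers. The log2 fold change was 5.82 ± 0.57 for D-gal/LPS over control (adjusted p = 0.0001636) and -3.24 ± 0.50 for WZB plus D-gal/LPS over D-gal/LPS (adjusted p = 0.004434). For WZB plus D-gal/LPS over control it was 2.58 ± 0.50 (adjusted p = 0.004131). Ordered by fold change over all tested genes, Hbb-bs was the 8th and Hba-a1 the 10th largest fall in WZB plus D-gal/LPS livers against D-gal/LPS livers. In D-gal/LPS livers against control livers they were the 158th and 159th largest rises.

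Each of these globins has a near copy beside it on its chromosome, Hba-a2 for Hba-a1 and Hbb-bt for Hbb-bs. Their coding sequences are shown where they differ, because reads from the identical parts cannot be assigned to either copy. The coding sequences of Hba-a1 and Hba-a2 are 429 bases long and those of Hbb-bs and Hbb-bt 444 bases, and each pair differs at 1 base (C381T and C417T, counted from 1 at the A of the start codon, the first-named gene's base first). The stretches below are from the reference transcripts of GENCODE, with the differing base in capitals.
Hba-a1: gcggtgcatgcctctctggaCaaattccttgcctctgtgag
Hba-a2: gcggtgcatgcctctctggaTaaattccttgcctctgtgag
Hbb-bs: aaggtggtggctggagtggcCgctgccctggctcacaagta
Hbb-bt: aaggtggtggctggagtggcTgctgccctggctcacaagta

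Of all stretches of 100 bases along the Hba-a1 transcript, 56.5% were also found whole in Hba-a2, and 62.6% of those of Hbb-bs were found in Hbb-bt. Counts of each copy are therefore uncertain. With the copies summed to 1 feature, alpha globin changed by 5.83 ± 0.30 on the log2 scale in D-gal/LPS livers over control livers (adjusted p = 1.521e-06). Summed beta globin changed by 5.86 ± 0.50 (adjusted p = 7.334e-05). In WZB plus D-gal/LPS livers over D-gal/LPS livers the summed alpha copies changed by -3.18 ± 0.27 (adjusted p = 0.0001447) and the summed beta copies by -3.24 ± 0.44 (adjusted p = 0.002421). Neither sum differed from its member's own log2 fold change by more than the standard error (SE).

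The promoters of these genes are shown because the genes moved together. Given are the 120 bases before the start of each gene in the RefSeq promoter table (GRCm38.p6), 5′ to 3′ on the gene's strand. Capitals mark matches on either strand to 4 short words known from erythroid promoters. They are the CACCC box, bound by factors of the KLF family, the CCAAT box, bound by NF-Y, the GATA site written as GATAA, and the TATA box written as TATAA. The first 2 sequences are from chr11:32283552-32283671 and chr11:32296372-32296491, both on the plus strand. The next 2 are from chr7:103827929-103828048 and chr7:103813924-103814043, on the minus strand, and the last is from chrX:150547297-150547416, on the plus strand.
Hba-a1: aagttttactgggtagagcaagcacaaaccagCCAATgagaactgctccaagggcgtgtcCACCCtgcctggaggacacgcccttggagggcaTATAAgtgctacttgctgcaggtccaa
Hba-a2: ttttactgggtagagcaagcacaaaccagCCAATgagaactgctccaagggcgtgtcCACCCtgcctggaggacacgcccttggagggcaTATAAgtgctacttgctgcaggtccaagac
Hbb-bs: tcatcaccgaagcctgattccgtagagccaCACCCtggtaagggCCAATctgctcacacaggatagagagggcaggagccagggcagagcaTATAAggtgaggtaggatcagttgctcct
Hbb-bt: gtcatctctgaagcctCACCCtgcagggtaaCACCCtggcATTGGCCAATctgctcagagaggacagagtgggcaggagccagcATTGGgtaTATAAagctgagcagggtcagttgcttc
Alas2: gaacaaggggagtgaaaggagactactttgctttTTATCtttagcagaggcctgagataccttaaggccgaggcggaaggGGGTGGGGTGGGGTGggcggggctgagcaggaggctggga

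The alpha promoters were the same at all 117 aligned bases, and the beta promoters at 91 of 118 aligned bases (77.1%). All 4 globin promoters held the CACCC box, the CCAAT box and the TATA box within these bases, and the Alas2 promoter held the GATA site and the CACCC box, whose 3 matches lie side by side. The ATTGG next to CCAAT in Hbb-bt is the same word on the other strand. Over the 250 bases before the start, all 4 globin promoters also held the GATA site, and Alas2 also held the TATA box, at 2 places. Such short words are common. Within the same 250 bases before the start, 52.0% of 32851 promoters held the CACCC box, 33.8% the CCAAT box, 22.6% the GATA site and 22.8% the TATA box. The matches are a description of these letters and not of bound factors. Of the 10 genes, 8 had an entry in the promoter table. Among those not printed, the Cpox promoter also held the GATA site and the CACCC box, within the same distance before its start as printed for Alas2. Cpox moved opposite to Alas2. It fell in D-gal/LPS livers against control livers and rose in WZB plus D-gal/LPS livers against D-gal/LPS livers. The promoters of Alas1, Blvra, Blvrb and Urod held no GATA site over the 250 bases.

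The neighbouring copies followed the same course. Hba-a2 had counts of 675, 768 and 1312 in WZB plus D-gal/LPS libraries, 10092, 6980 and 11011 in D-gal/LPS libraries, and 113, 175 and 229 in control libraries. Hbb-bt had counts of 439, 466 and 848 in WZB plus D-gal/LPS libraries, 6696, 4384 and 7230 in D-gal/LPS libraries, and 65, 98 and 115 in control libraries. Of the 12 genes listed as globins of red cells, 10 were found and 4 passed the filter on low counts. The median log2 fold change of those 4 was 5.83 in D-gal/LPS livers over control livers and -3.20 in WZB plus D-gal/LPS livers over D-gal/LPS livers, where the medians of all genes were -0.03 and -0.02. The embryonic globins Hba-x, Hbb-y, Hbb-bh1 and Hbb-bh2 had a count of 0 in all 9 libraries. Hbq1a and Hbq1b, the theta globins, had counts of 2, 2 and 1 and of 3, 0 and 4 in D-gal/LPS libraries, and 0 in every other library.

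Together the 4 adult globin genes took 0.0312%, 0.0237% and 0.0524% of all counts in WZB plus D-gal/LPS libraries. They took 0.442%, 0.339% and 0.360% in D-gal/LPS libraries, and 0.00512%, 0.00744% and 0.00804% in control libraries. Even at its highest, globin was thus below 1% of a liver library. The ratio of Hba-a1 to Hba-a2 counts was steady, between 1.39 and 1.60 in all 9 libraries. The ratio of Hbb-bs to Hbb-bt counts was not: it was 6.13, 2.70 and 6.29 in WZB plus D-gal/LPS libraries, 6.21, 6.84 and 3.31 in D-gal/LPS libraries, and 6.52, 5.98 and 6.90 in control libraries. These are the 2 libraries that stood apart, with fewer Hbb-bs counts beside Hbb-bt than the other 7. Without these libraries Hbb-bs changed by 6.00 on the log2 scale in D-gal/LPS livers over control livers (adjusted p = 4.58e-05) and by -3.08 in WZB plus D-gal/LPS livers over D-gal/LPS livers (adjusted p = 0.005712).

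**Figure D2:**
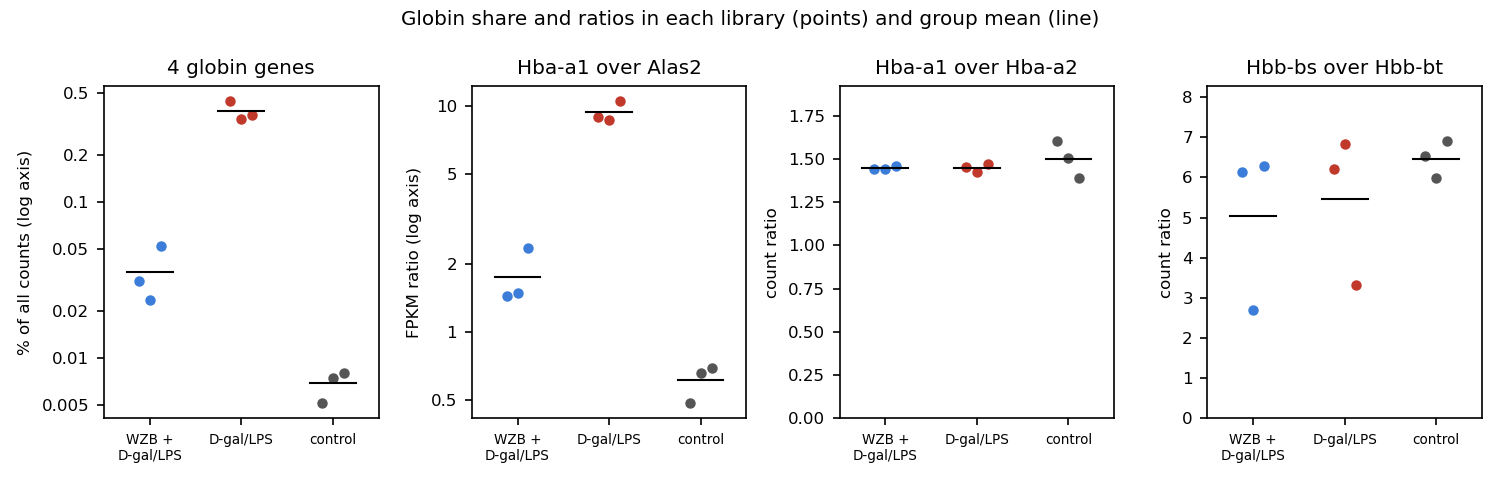
From left to right, the share of all counts held by Hba-a1, Hba-a2, Hbb-bs and Hbb-bt (percent, log axis), the FPKM ratio of Hba-a1 to Alas2 (log axis), and the count ratios of Hba-a1 to Hba-a2 and of Hbb-bs to Hbb-bt (linear axes from 0), per library (points) with group means (lines). The globin share separates the 3 groups, and the last panel shows 1 library of WZB plus D-gal/LPS at 2.70 and 1 of D-gal/LPS at 3.31, below the other 7.

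Globin messenger RNA in liver may come with circulating red cells, so markers of blood cells were read beside it. In bulk tissue fewer cells of a type and less RNA per cell cannot be told apart. Of 15 erythroid markers, 14 were found and 3 passed the filter, Slc4a1 through the libraries where it was high. Their summed level over the 14 was 11.5 to 13.9 CPM in WZB plus D-gal/LPS livers, 13.2 to 16.9 CPM in D-gal/LPS livers and 6.33 to 9.83 CPM in control livers, so the injured groups overlapped. That overlap came with Car1, a carbonic anhydrase gene of red cells and gut, which averaged 9.72 ± 1.13 CPM in WZB plus D-gal/LPS livers, 7.04 ± 0.979 CPM in D-gal/LPS livers and 4.43 ± 1.09 CPM in control livers. Without Car1, left out after its values were seen, the other 13 summed to 2.46 to 3.39 CPM in WZB plus D-gal/LPS livers, 5.87 to 10.9 CPM in D-gal/LPS livers and 3.01 to 4.34 CPM in control livers. The D-gal/LPS libraries lay above the other 6. Unlike for the globins, the WZB plus D-gal/LPS sums overlapped the control sums, with medians of 3.04 and 3.75 CPM. Klf1, which also ran against the rest and is given below, was kept in these sums. Slc4a1, the anion exchanger of the red cell membrane, had counts of 15, 14 and 12 in WZB plus D-gal/LPS libraries, 67, 29 and 56 in D-gal/LPS libraries, and 0 in all control libraries. With 3 counts placed over the control group, Slc4a1 was at least 53.3-fold higher in D-gal/LPS livers and at least 16.3-fold higher in WZB plus D-gal/LPS livers than in control livers. Klf1, the erythroid factor that binds CACCC boxes, went the other way, at 0.973 ± 0.598 CPM in WZB plus D-gal/LPS livers, 0.625 ± 0.171 CPM in D-gal/LPS livers and 2.85 ± 0.732 CPM in control livers (log2 fold change -2.18 ± 0.44 for D-gal/LPS over control, adjusted p = 0.0007706). Gata1, the other defining erythroid factor, had a count of 0 in all WZB plus D-gal/LPS and all control libraries. So did Rhag and Hemgn, while Rhd was at 0 in all 9 libraries. Gata1, Rhag and Hemgn were each counted in at least 1 D-gal/LPS library, but were too low to pass the filter.

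The summed levels of platelet, neutrophil and Kupffer cell markers had the same order of groups as the globins, though not every marker passed. Platelet markers summed to 11.7 to 12.9 CPM in WZB plus D-gal/LPS livers, 28.8 to 42.7 CPM in D-gal/LPS livers and 2.58 to 6.98 CPM in control livers. Of the 8 platelet markers listed, 6 rose in D-gal/LPS livers against control livers, where 29.1% of all genes were higher. In WZB plus D-gal/LPS livers against D-gal/LPS livers 5 of the 8 fell, where 14.7% of all genes were lower. Without the libraries named above 1 of the 8 was called, against 7.36% of all genes. Pf4, Itga2b, Gp9 and Gp6, no longer called, then had log2 fold changes of -1.45, -1.34, -2.18 and -1.41. In the fit of all libraries these were -1.46, -1.21, -2.40 and -1.84. Ppbp, the platelet chemokine gene, averaged 2.04 ± 0.0822 CPM in WZB plus D-gal/LPS livers, 8.93 ± 2.15 CPM in D-gal/LPS livers and 0.322 ± 0.400 CPM in control livers. Neutrophil markers summed to 249.7 to 275 CPM in WZB plus D-gal/LPS livers, 356 to 383 CPM in D-gal/LPS livers and 5.60 to 6.21 CPM in control livers. Of 11 neutrophil markers 10 rose in D-gal/LPS livers against control livers (29.1% of all genes). In WZB plus D-gal/LPS livers against D-gal/LPS livers 6 of the 11 fell, or 5 without the libraries named above (14.7% and 7.36% of all genes). Kupffer cell markers summed to 179 to 241 CPM in WZB plus D-gal/LPS livers, 343 to 389 CPM in D-gal/LPS livers and 81.4 to 89.9 CPM in control livers. All 7 rose in D-gal/LPS livers against control livers (29.1% of all genes). In WZB plus D-gal/LPS livers 4 of the 7 were higher than in control livers (32.6% of all genes). In WZB plus D-gal/LPS livers against D-gal/LPS livers 6 fell, and also 6 without the libraries named above (14.7% and 7.36% of all genes). Sinusoidal endothelium markers summed to 179 to 224 CPM in WZB plus D-gal/LPS livers, 369.6 to 387 CPM in D-gal/LPS livers and 73.0 to 81.4 CPM in control livers. The part of these cells in the changes of the 10 genes was not tested.

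**Figure D3:**
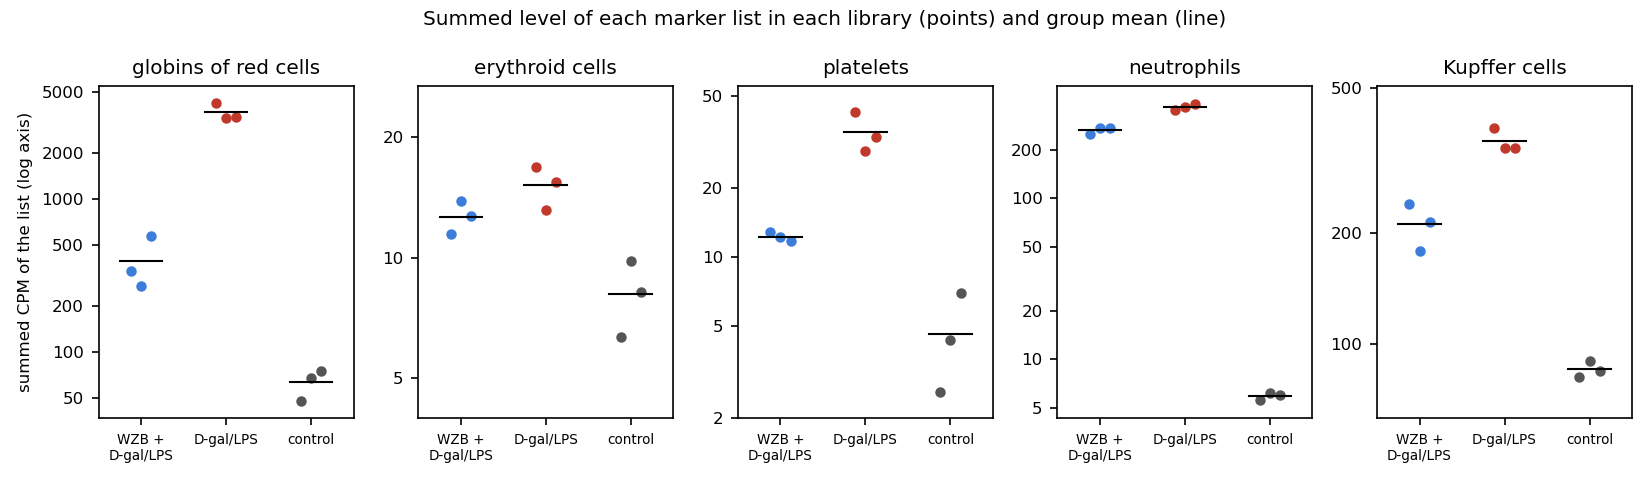
Summed CPM (log axes) of the lists of red cell globins, erythroid cells, platelets, neutrophils and Kupffer cells in each library (points), with group means (lines). All 5 lists had their highest mean in D-gal/LPS livers and their lowest in control livers. The erythroid list lay at 11.5 to 13.9 CPM in WZB plus D-gal/LPS livers, 13.2 to 16.9 CPM in D-gal/LPS livers and 6.33 to 9.83 CPM in control livers, and its injured groups overlap. Without Car1, a choice made after its values were seen, they do not, but WZB plus D-gal/LPS and control livers then overlap.

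Synthesis of haem begins with an aminolevulinate synthase. Against control livers, the paired genes of this step moved in opposite directions in both injured groups. Alas1 encodes the form used in liver and most other tissues, whose transcription is held down by haem (chr9:106233455-106248126, minus strand). Its counts were 252, 251 and 265 in WZB plus D-gal/LPS libraries, 437, 320 and 393 in D-gal/LPS libraries, and 6892, 3887 and 6730 in control libraries. Every injured library was far below every control library. Alas1 averaged 17.7 ± 1.32 CPM in WZB plus D-gal/LPS livers, 23.2 ± 2.08 CPM in D-gal/LPS livers and 336 ± 95.5 CPM in control livers. In D-gal/LPS livers against control livers it fell by 3.86 on the log2 scale (SE 0.21, adjusted p = 3.793e-07), which was the 35th largest fall of all genes tested. Against control livers it fell by 4.25 in WZB plus D-gal/LPS livers (SE 0.22, adjusted p = 2.748e-07).

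Between the injured groups the Alas1 libraries did not overlap, yet the log2 fold change of -0.39 ± 0.20 for WZB plus D-gal/LPS over D-gal/LPS did not pass (adjusted p = 0.1823). Control library 2 was lower than the other controls and entered the shared estimate of the spread. Without it that difference passed at the same size (adjusted p = 0.01364). It also passed in the fit of only the groups compared (0.02635), with libraries scaled by total counts only (0.04552) and with log2(FPKM + 0.1) (0.03638), and over all alternatives its adjusted p reached 0.4035. Alas1 shares 465 exon bases with the antisense transcript 4930500F10Rik, which had a count of 0 in every library.

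Alas2 encodes the erythroid form of the enzyme and lies on the X chromosome (chrX:150547375-150570638, plus strand). Its counts were 1817, 2004 and 2190 in WZB plus D-gal/LPS libraries, 4373, 3079 and 4114 in D-gal/LPS libraries, and 1004, 1077 and 1227 in control libraries. The 3 groups were ordered as for the globins and did not overlap. Alas2 averaged 138 ± 11.6 CPM in WZB plus D-gal/LPS livers, 233 ± 26.3 CPM in D-gal/LPS livers and 63.6 ± 1.65 CPM in control livers. The log2 fold change was 1.87 ± 0.10 for D-gal/LPS over control (adjusted p = 2.012e-09) and -0.75 ± 0.09 for WZB plus D-gal/LPS over D-gal/LPS (adjusted p = 8.28e-05). For WZB plus D-gal/LPS over control it was 1.12 ± 0.10 (adjusted p = 3.814e-07). Of its exon bases 12.9% overlap those of Apex2 on the other strand, whose counts were 74 to 104 in WZB plus D-gal/LPS libraries, 78 to 95 in D-gal/LPS libraries and 128 to 153 in control libraries. Whether the counting used strand is not given, and Apex2 counts were lower in both injured groups than in control livers and overlapped between the injured groups.

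Alas2 moved far less than the globins it accompanies in red cells. On the FPKM scale, which divides by gene length, the ratio of Hba-a1 to Alas2 was 1.44, 1.48 and 2.34 in WZB plus D-gal/LPS livers, 8.97, 8.65 and 10.5 in D-gal/LPS livers, and 0.483, 0.654 and 0.694 in control livers. In control livers Alas2 was thus above Hba-a1 per length, and in both injured groups below it. The ratio of Alas1 to Alas2 was 0.0653, 0.0590 and 0.0570 in WZB plus D-gal/LPS livers and 0.0470, 0.0489 and 0.0450 in D-gal/LPS livers, against 3.23, 1.70 and 2.58 in control livers. The liver form was the more abundant synthase transcript in every control library and the less abundant in every injured library.

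The middle enzymes of the pathway moved little by comparison. Cpox encodes coproporphyrinogen oxidase, which acts between the cell's cytosolic and last mitochondrial steps (chr16:58670208-58680391, plus strand). Its levels were 88.0, 94.6 and 96.1 CPM in WZB plus D-gal/LPS livers, 49.1, 64.1 and 51.4 CPM in D-gal/LPS livers, and 103, 79.3 and 85.1 CPM in control livers. The D-gal/LPS libraries lay below all 6 others. The log2 fold change was -0.70 ± 0.12 for D-gal/LPS over control (adjusted p = 0.0001942) and 0.76 ± 0.12 for WZB plus D-gal/LPS over D-gal/LPS (adjusted p = 0.000424). For WZB plus D-gal/LPS over control it was 0.06 ± 0.12, which did not pass (adjusted p = 0.6918).

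Urod encodes uroporphyrinogen decarboxylase, the enzyme before Cpox in the pathway (chr4:116989965-116994413, minus strand). Its levels were 42.7, 54.3 and 40.5 CPM in WZB plus D-gal/LPS livers, 27.0, 38.5 and 36.1 CPM in D-gal/LPS livers, and 43.1, 41.0 and 43.3 CPM in control livers. The D-gal/LPS libraries were again below the other 6, by less than for Cpox. Its log2 fold change for WZB plus D-gal/LPS over D-gal/LPS was 0.44 ± 0.14 (adjusted p = 0.03275), and for D-gal/LPS over control -0.33 ± 0.14 (adjusted p = 0.05916). The first of these calls was lost without D-gal/LPS library 1 (adjusted p = 0.1382), without D-gal/LPS library 3 (0.05527) or without WZB plus D-gal/LPS library 2 (0.1532), and the second was gained without D-gal/LPS library 2 (0.03661) or WZB plus D-gal/LPS library 2 (0.03729).

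Fech encodes ferrochelatase, which inserts iron in the last step (chr18:64456550-64489066, minus strand). Its levels were 164, 163 and 172 CPM in WZB plus D-gal/LPS livers, 131, 140.2 and 139 CPM in D-gal/LPS livers, and 118, 124 and 118 CPM in control livers. The groups did not overlap, but the steps between them were small. The log2 fold change was 0.19 ± 0.07 for D-gal/LPS over control (adjusted p = 0.03641), 0.29 ± 0.07 for WZB plus D-gal/LPS over D-gal/LPS (adjusted p = 0.008716) and 0.47 ± 0.07 for WZB plus D-gal/LPS over control (adjusted p = 6.87e-05). The rise in D-gal/LPS livers did not pass without control library 1 (adjusted p = 0.1028), control library 3 (0.1085), D-gal/LPS library 2 (0.05624) or D-gal/LPS library 3 (0.1068). The rise in WZB plus D-gal/LPS livers over D-gal/LPS livers did not pass without D-gal/LPS library 2 (0.06463), nor with libraries scaled by total counts only (0.3817).

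Over 8 enzymes of haem synthesis, D-gal/LPS livers against control livers had 2 higher (Alas2 and Fech) and 4 lower (Alas1, Alad, Cpox and Ppox), with a median log2 fold change of -0.38. Of all genes, 29.1% were higher and 29.3% lower there. WZB plus D-gal/LPS livers against D-gal/LPS livers had 3 higher (Urod, Cpox and Fech) and 1 lower (Alas2), with a median of 0.26, where 13.8% of all genes were higher and 14.7% lower. Without the libraries set apart by their beta globin ratio 1 was higher (Cpox), against 6.43% of all genes. In D-gal/LPS livers against control livers 1 was then higher and 5 lower, against 26.5% and 25.5%. Ppox, which makes the last ring before iron, had a log2 fold change of -0.57 ± 0.14 for D-gal/LPS over control (adjusted p = 0.002603) and 0.23 ± 0.14 for WZB plus D-gal/LPS over D-gal/LPS (adjusted p = 0.2361). Uros, which closes the ring, did not pass in either (0.38 ± 0.19, adjusted p = 0.09298, and 0.50 ± 0.18, adjusted p = 0.05631). Without control library 1 the D-gal/LPS over control value of Uros was 0.68 (adjusted p = 0.001488). The value between the injured groups passed in 6 of 21 alternatives, with adjusted p = 0.008502 in the fit of only the groups compared.

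**Figure D4:**
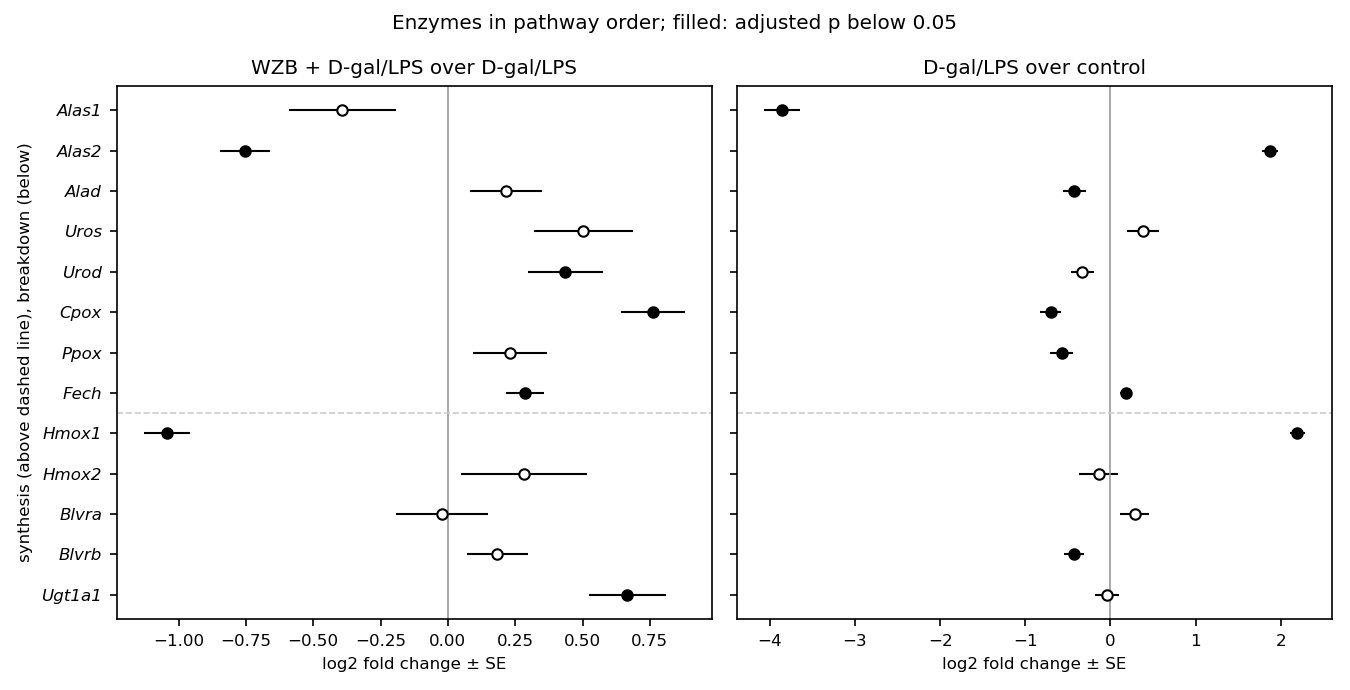
Log2 fold changes ± SE of the enzymes in pathway order, for WZB plus D-gal/LPS over D-gal/LPS (left) and D-gal/LPS over control (right, wider axis), 3 libraries a group. Filled points passed an adjusted p of 0.05. On the right Alas1 at -3.86, Alas2 at 1.87 and Hmox1 at 2.20 lie outside the range of the other enzymes. On the left the values run from -1.04 for Hmox1 to 0.76 for Cpox.

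Hmox1, the inducible haem oxygenase, rose in D-gal/LPS livers and was lower in livers given WZB as well. It lies on chromosome 8 (chr8:75093591-75100596, plus strand). Its counts were 975, 1023 and 1310 in WZB plus D-gal/LPS libraries, 2703, 2452 and 2531 in D-gal/LPS libraries, and 528, 548 and 698 in control libraries. The libraries of each group lay close together and the groups did not overlap. Hmox1 averaged 75.5 ± 5.90 CPM in WZB plus D-gal/LPS livers, 156 ± 6.13 CPM in D-gal/LPS livers and 34.0 ± 2.11 CPM in control livers. The log2 fold change was 2.20 ± 0.09 for D-gal/LPS over control (adjusted p = 1.944e-10) and -1.04 ± 0.09 for WZB plus D-gal/LPS over D-gal/LPS (adjusted p = 5.015e-06). For WZB plus D-gal/LPS over control it was 1.15 ± 0.09 (adjusted p = 1.389e-07).

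The other enzymes of haem breakdown did not follow Hmox1. Hmox2, the constitutive haem oxygenase, averaged 38.9 ± 8.06 CPM in WZB plus D-gal/LPS livers, 32.0 ± 8.5003 CPM in D-gal/LPS livers and 35.2 ± 8.00 CPM in control livers, and did not pass (adjusted p = 0.4122 between the injured groups and 0.6416 for D-gal/LPS over control). Blvra, the main biliverdin reductase of the adult, had only 112 to 154 counts in any library (chr2:127070665-127097084, plus strand). It averaged 8.87 ± 0.353 CPM in WZB plus D-gal/LPS livers, 9.01 ± 0.146 CPM in D-gal/LPS livers and 7.41 ± 1.68 CPM in control livers. Its log2 fold change of 0.28 ± 0.17 for D-gal/LPS over control did not pass (adjusted p = 0.1701). It passed without control library 2 (adjusted p = 0.02527), as did the difference between WZB plus D-gal/LPS and control livers (adjusted p = 0.0308).

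Blvrb encodes a second reductase that also reduces flavins (chr7:27447978-27466144, plus strand). Its levels were 68.4, 80.3 and 61.1 CPM in WZB plus D-gal/LPS livers, 53.3, 68.8 and 62.6 CPM in D-gal/LPS livers, and 83.6, 81.2 and 83.8 CPM in control livers. The control libraries lay above the other 6. The log2 fold change was -0.43 ± 0.11 for D-gal/LPS over control (adjusted p = 0.005236), and 0.18 ± 0.11 for WZB plus D-gal/LPS over D-gal/LPS (adjusted p = 0.2564). For WZB plus D-gal/LPS over control, -0.25 ± 0.11 did not pass (adjusted p = 0.07636), but it did without WZB plus D-gal/LPS library 2 (0.0172) or D-gal/LPS library 2 (0.02073). Ugt1a1, which conjugates bilirubin for excretion, averaged 412 ± 29.2 CPM in WZB plus D-gal/LPS livers, 259.8 ± 60.4 CPM in D-gal/LPS livers and 266 ± 19.0 CPM in control livers. It rose in WZB plus D-gal/LPS livers over D-gal/LPS livers (log2 fold change 0.67 ± 0.14, adjusted p = 0.005124).

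Per gene length, the order of the 10 genes differed between groups. In WZB plus D-gal/LPS livers Hbb-bs (47.6 to 171 FPKM), Hba-a1 (53.4 to 89.3 FPKM) and Fech (49.0 to 53.6 FPKM) overlapped at the top, and Alas1 was lowest (2.17 to 2.43 FPKM). In D-gal/LPS livers Hbb-bs (853 to 1452 FPKM) and Hba-a1 (550.3 to 837 FPKM) led, followed by Alas2 (63.7 to 82.9 FPKM), Hmox1 (56.4 to 59.2 FPKM) and Fech (47.3 to 50.02 FPKM). In control livers Alas1 (38.0 to 66.4 FPKM) and Fech (43.1 to 47.1 FPKM) were at the top with overlapping values, ahead of Blvrb (32.1 to 32.2 FPKM) and Cpox (27.4 to 34.5 FPKM), which overlapped each other. Urod and Blvra were low in all 3 groups, with Urod at 7.32 to 9.42 FPKM in WZB plus D-gal/LPS livers, 5.64 to 7.69 FPKM in D-gal/LPS livers and 8.99 to 9.14 FPKM in control livers.

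The genes whose levels ran most like those of 3 members were found over the 9 libraries by the root mean square difference of centred log2 CPM. The members themselves and genes with Gm or Rik names were left out of this search. Nearest to Hba-a1 were Hba-a2 (0.05) and Hbb-bt (0.13), then Slamf1 (0.35). The fitted log2 fold change of Slamf1 for D-gal/LPS over control was 9.94, well above that of Hba-a1. Nearest to Alas1 were Tbx3 (0.33), Nags (0.35) and Inhbe (0.37). Nearest to Hmox1 were Adamts13 (0.11), Tcf4 (0.11) and Odc1 (0.12), all closer to it than the nearest genes were to Alas1.

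Genes that move haem between compartments and capture it in plasma were also read. Of 12 genes of haem and porphyrin transport, 4 were higher and 2 lower in D-gal/LPS livers than in control livers, where 29.1% of all genes were higher and 29.3% lower. Between the injured groups 5 of the 12 were higher in WZB plus D-gal/LPS livers, with a median log2 fold change of 0.23, and 3 without the libraries set apart above (13.8% and 6.43% of all genes). Among them, Pgrmc1, a haem-binding partner of ferrochelatase, changed by 0.80 ± 0.09 (adjusted p = 4.526e-05), and Tmem14c, which helps porphyrin into mitochondria, by 0.68 ± 0.10 (adjusted p = 0.000213). Of 5 genes that scavenge haemoglobin and haem, 2 (Hp and Hpx) fell in D-gal/LPS livers against control livers. Between the injured groups 4 (Hp, Hpx, Cd163 and Lrp1) were lower in WZB plus D-gal/LPS livers, and 2 without the libraries set apart above (14.7% and 7.36% of all genes). Hp, the plasma protein haptoglobin that binds free haemoglobin, averaged 2691 ± 456 CPM in WZB plus D-gal/LPS livers, 4258 ± 953 CPM in D-gal/LPS livers and 8771 ± 308 CPM in control livers. Hpx, the haem-binding haemopexin, averaged 3448 ± 71.0 CPM in WZB plus D-gal/LPS livers, 5079 ± 581 CPM in D-gal/LPS livers and 6219 ± 308 CPM in control livers.

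Both scavengers were lower in each injured group than in control livers. For D-gal/LPS over control the log2 fold change was -1.04 ± 0.17 for Hp (adjusted p = 0.0003946) and -0.29 ± 0.09 for Hpx (adjusted p = 0.01074). For WZB plus D-gal/LPS over D-gal/LPS it was -0.66 ± 0.16 for Hp (adjusted p = 0.01412) and -0.56 ± 0.09 for Hpx (adjusted p = 0.0004258). Hpx did not pass for D-gal/LPS over control without D-gal/LPS library 2 (adjusted p = 0.06589) or library 3 (0.05078). Cd163, the macrophage receptor for haptoglobin bound to haemoglobin, averaged 2.07 ± 0.560 CPM in WZB plus D-gal/LPS livers, 5.26 ± 0.163 CPM in D-gal/LPS livers and 5.49 ± 0.593 CPM in control livers. It fell in WZB plus D-gal/LPS livers against D-gal/LPS livers (log2 fold change -1.33 ± 0.23, adjusted p = 0.000914). There 6 of 7 Kupffer cell markers fell as well, against 14.7% of all genes. The Cd163 log2 fold change of -0.06 ± 0.21 for D-gal/LPS over control did not pass (adjusted p = 0.8201).

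Genes known to control Alas1 and Hmox1 were read as a list of 16. D-gal/LPS livers had 4 of them higher and 9 lower than control livers (median log2 fold change -0.64), where 29.1% of all genes were higher and 29.3% lower. WZB plus D-gal/LPS livers had 5 higher and 3 lower than D-gal/LPS livers (median 0.04), against 13.8% and 14.7% of all genes. Without the libraries set apart above 3 were higher and 1 lower, against 6.43% and 7.36%. Bach1, the haem-sensing repressor of Hmox1, averaged 21.6 ± 0.538 CPM in WZB plus D-gal/LPS livers, 32.8 ± 2.12 CPM in D-gal/LPS livers and 30.6 ± 4.54 CPM in control livers. It did not pass for D-gal/LPS over control (log2 fold change 0.10 ± 0.12, adjusted p = 0.4748), and it fell in WZB plus D-gal/LPS livers (log2 fold change -0.60 ± 0.12 over D-gal/LPS, adjusted p = 0.002131). Nfe2l2, which encodes the activator NRF2, rose by a log2 fold change of 0.34 ± 0.09 in D-gal/LPS livers over control livers (adjusted p = 0.004175). Keap1, which targets NRF2 for degradation, averaged 16.7 ± 1.93 CPM in WZB plus D-gal/LPS livers and 16.6 ± 0.860 CPM in D-gal/LPS livers, against 42.0 ± 1.46 CPM in control livers.

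Among the genes that fell in D-gal/LPS livers against control livers were 3 known as activators of Alas1. The coactivator gene Ppargc1a changed by -1.57 ± 0.34 on the log2 scale (adjusted p = 0.001503), Foxo1 by -1.40 ± 0.14 (adjusted p = 2.042e-06), and the drug-sensing receptor gene Nr1i3 by -1.76 ± 0.32 (adjusted p = 0.002734). The 9 listed regulators that fell were not activators alone. Nr1d1 changed by -1.34 (adjusted p = 0.001766) and Nr1d2 by -0.61 (adjusted p = 0.0001626). Whether any of these genes acted on Alas1 was not tested. Nr1i2, the other drug-sensing receptor gene, averaged 64.1 ± 4.28 CPM in WZB plus D-gal/LPS livers, 38.5 ± 4.42 CPM in D-gal/LPS livers and 63.8 ± 8.46 CPM in control livers. Nr1i2 rose in WZB plus D-gal/LPS livers over D-gal/LPS livers by 0.73 ± 0.12 (adjusted p = 0.0005137), while Alas1 had a log2 fold change of -0.39. Ppargc1a also rose there (1.17 ± 0.35, adjusted p = 0.02351), a call lost without D-gal/LPS library 2 (0.1133), D-gal/LPS library 3 (0.06385) or WZB plus D-gal/LPS library 2 (0.13).

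**Figure D5:**
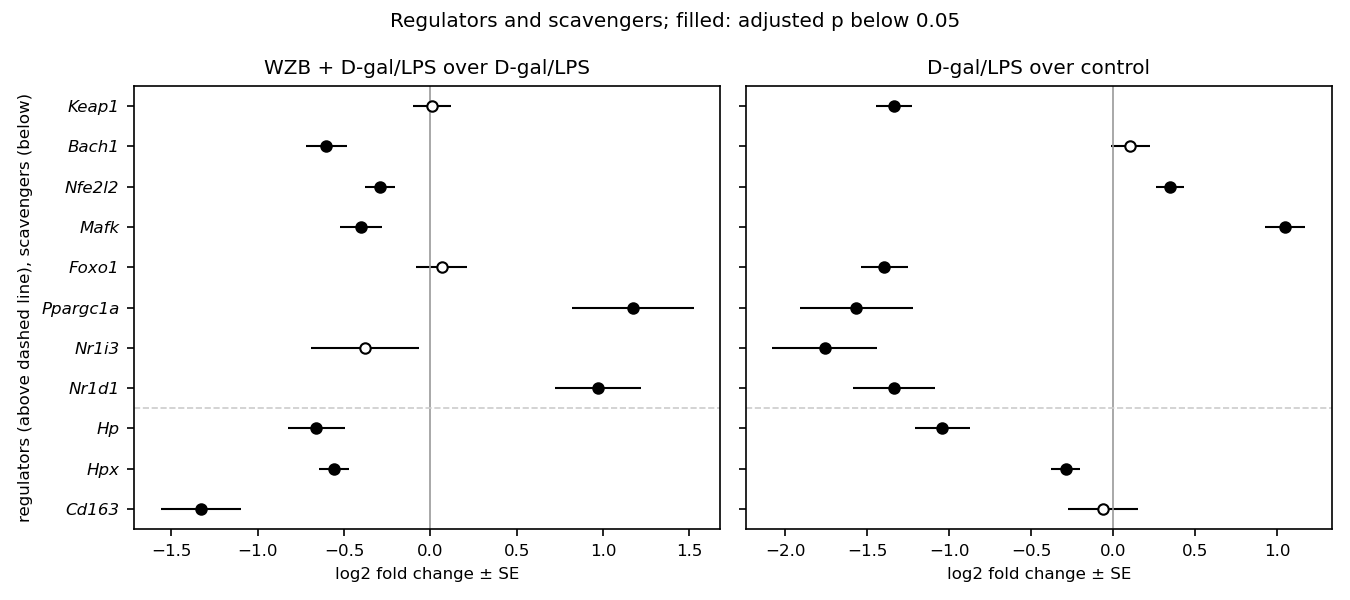
Log2 fold changes ± SE of regulators of Alas1 and Hmox1 (above the dashed line) and of haemoglobin and haem scavengers (below it), for WZB plus D-gal/LPS over D-gal/LPS (left) and D-gal/LPS over control (right), 3 libraries a group. Filled points passed an adjusted p of 0.05. Keap1, Nr1d1, Foxo1, Ppargc1a and Nr1i3 lie between -1.34 and -1.76 on the right, and Cd163 at -1.33 is the lowest of the 11 on the left.

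Other targets of NRF2 and BACH1 moved in both directions. Of 11 such genes, D-gal/LPS livers had 3 higher and 8 lower than control livers (29.1% and 29.3% of all genes), with a median log2 fold change of -0.65. WZB plus D-gal/LPS livers had 5 higher and 2 lower than D-gal/LPS livers (13.8% and 14.7% of all genes), with a median of 0.30. Without the libraries set apart above 2 were higher and 1 lower, against 6.43% and 7.36%. Slc7a11, the cystine transporter, followed the order of Hmox1, at 4.50 ± 0.819 CPM in WZB plus D-gal/LPS livers, 8.42 ± 1.15 CPM in D-gal/LPS livers and 0.0750 ± 0.0654 CPM in control livers. Slc40a1, the iron exporter ferroportin, ran the other way, at 30.3 ± 1.53 CPM in WZB plus D-gal/LPS livers, 21.1 ± 4.27 CPM in D-gal/LPS livers and 60.1 ± 4.28 CPM in control livers. Me1, a malic enzyme that yields NADPH, averaged 238 ± 15.7 CPM in WZB plus D-gal/LPS livers, 90.2 ± 12.5 CPM in D-gal/LPS livers and 145 ± 2.50 CPM in control livers. The list of globins of other cells held 4 genes, of which 2 passed the filter, and they differed in order. Cygb, a globin of hepatic stellate cells, averaged 15.2 ± 1.26 CPM in WZB plus D-gal/LPS livers, 10.4 ± 1.51 CPM in D-gal/LPS livers and 7.55 ± 1.45 CPM in control livers. Its log2 fold change of 0.54 ± 0.17 for WZB plus D-gal/LPS over D-gal/LPS passed (adjusted p = 0.02772) but was lost in 9 of 21 alternatives (adjusted p up to 0.1512). Adgb, the androglobin gene, had the order of the haemoglobin genes, at 3.10 ± 0.313 CPM in WZB plus D-gal/LPS livers, 5.13 ± 1.16 CPM in D-gal/LPS livers and 1.01 ± 0.306 CPM in control livers. It rose in D-gal/LPS livers over control livers (log2 fold change 2.33 ± 0.29, adjusted p = 1.362e-05), and its value of -0.73 ± 0.26 for WZB plus D-gal/LPS over D-gal/LPS did not pass (adjusted p = 0.05412).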

How the data were processed

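The authors deposited a table of read counts and of FPKM, a level per gene length and library size. The submitters' processing notes name GRCm38.p4 (mm10), limma and R 4.1.2, without their roles. Aligner, counting program and strandedness: not given in the sources used. Of 21 value columns, 3 matched no labelled sample and were not used. Counts were tested with edgeR 4.0.16 in R 4.3.3: filterByExpr left 13583 of 34745 genes with 99.93% of reads, libraries were scaled by TMM, and all 9 libraries entered 1 robust quasi-likelihood fit with 6 residual degrees of freedom. P-values were adjusted by Benjamini-Hochberg over all 13583 genes, and 0.05 was the threshold. CPM are scaled to the TMM library size. The standard error (SE) is the size of the log2 fold change over the square root of the F statistic, and is approximate. The deposited FPKM were used for levels between genes and, as log2 values with 0.1 or 1 added, in an alternative with limma 3.58.1. Other alternatives were DESeq2 1.42.0, voom, other scalings and filters, a replicate block and leaving out libraries. Replicates correlated at 0.9703 to 0.981 (Pearson, log2 CPM) with a chi-square per gene of 12.94 to 29.42, so none was a repeat of another. The SD and SE include the spread between libraries, while the lower bounds given for Slc4a1 cover counting error only.

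The 10 members and the 15 gene lists were chosen with earlier results of these data known. The text names the members, the genes of haem synthesis, haem breakdown and red cell globins, and from the other lists those with the smallest adjusted p or fixed by name. Hbb-b1, Hbb-b2 and Ahsp were not found in the table. Some listed genes are not reported here, and the counts, medians and sums of their lists leave them out. The code of the fit was run on simulated counts in which few genes changed, evenly up and down, so that run does not cover a response as broad as the one here.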

Additional observations from a re-analysis of the deposited data

How the results depend on the processing

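No call of a member reversed in any alternative: a replicate block, other scalings, filters and tools, or leaving libraries out. Alternatives chosen after seeing the data were the summed globin copies, the erythroid sum without Car1, and leaving out D-gal/LPS library 3 and WZB plus D-gal/LPS library 2 together. The replicate numbers did not pair the libraries (correlations of same-numbered deviations from -0.067 to 0.042, own number best in 1 of 9). A replicate block changed the call of no member but Urod, which was then lower in D-gal/LPS against control livers (adjusted p = 0.04409). Scaling by total counts only moved the median of all genes by -0.20 on the log2 scale for WZB plus D-gal/LPS over D-gal/LPS and by -0.25 over control.

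Between the injured groups, 3 members were higher and 4 lower. Higher members numbered 1 with total counts, with either FPKM alternative and without the 2 libraries left out together, and 0 at a fold of at least 2. Lower members numbered 5, with Alas1 added, with total counts and with log2(FPKM + 0.1). Over all genes, 1873 were higher and 2001 lower, against 850 and 3290 with total counts, 899 and 3222 with log2(FPKM + 0.1), 913 and 3384 with log2(FPKM + 1), 181 and 608 at a fold of at least 2, and 889 and 1017 without those 2 libraries. Leaving out single libraries gave 1232 (without D-gal/LPS library 2) to 1947 higher and 1410 to 2315 lower. For D-gal/LPS against control, a fold of at least 2 left 1 of 3 lower members and 2454 higher and 1731 lower genes, against 3957 and 3974. Against control livers it left, for WZB plus D-gal/LPS, 2290 higher and 1861 lower genes, against 4430 and 3806, and lower members numbered 2 in place of 1 (Blvrb being added) in the fit of only the groups compared, with total counts, with a filter of 5 CPM, with both FPKM alternatives, without the 2 libraries, and 1 to 2 when single libraries were left out. The cause was not tested.

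Fech for D-gal/LPS over control failed in 10 of 21 alternatives (adjusted p up to 0.1381), Fech for WZB plus D-gal/LPS over D-gal/LPS in 5 of 21 (up to 0.3817), and Urod in 11 of 21 (up to 0.2003). Among named genes outside the members, Hp for WZB plus D-gal/LPS over D-gal/LPS failed with the replicate block (adjusted p = 0.0582). So did Ppargc1a (0.05792), Gp6 (0.0723) and Tat (0.05034), and Gp6 failed in 9 of 20 alternatives.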
